A study of Mus musculus with 12 samples.

Results

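Acyl-CoA thioesterases split long, medium or short fatty acyl-CoA into the free fatty acid and coenzyme A. The genes were taken from the gene count table by symbol, and 9 of its 20295 genes make up the set (Acot1, Acot2, Acot3, Acot4, Acot7, Acot8, Acot9, Acot11 and Acot13). The table holds RNA-seq counts of 12 libraries of primary mature white adipocytes from epididymal fat (eWAs) of lean male C57/BL6J mice, 3 libraries in each of 4 groups. The adipocytes had been separated from collagenase-digested fat by flotation, set into a hydrogel at 50000 cells per well and cultured for 2 days before treatment. The DMSO group received the vehicle and no drug, and the ISO group received isoproterenol, a β-adrenergic agonist, for 3 h. The Lip group received lipase inhibitors, named in the study's methods as Atglistatin against ATGL and CAY10499 against HSL, and the Lip+ISO group received these inhibitors and then ISO for 3 h. One legend of the study names another activator of lipolysis for white adipocytes, and the groups are given here as the sample labels have them. The comparisons ask which of these genes respond to β-adrenergic stimulation and whether the response needs the release of fatty acids from stored fat.

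ATGL and HSL are the lipases that take fatty acids off stored triacylglycerol and diacylglycerol. Acyl-CoA synthetases couple the released fatty acids to coenzyme A, and acyl-CoA thioesterases split the product again. The thioesterases of the family lie in different compartments of the cell. Acot1 to Acot6 encode the α/β-hydrolase type of the enzyme, of which Acot1 is cytosolic, Acot2 mitochondrial and Acot3 to Acot6 peroxisomal. The other members encode enzymes with a hotdog fold. In liver and heart, the genes of the hydrolase type are known as targets of PPARα, a nuclear receptor that fatty acids activate.

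The hydrolase-type genes lie side by side on the plus strand of chromosome 12, in the order Acot2, Acot1, Acot4, Acot3, Acot5 and Acot6, within 121.9 kb (mm9, as in the count table). Acot2 spans chr12:85328811-85334825, Acot1 chr12:85350452-85358619, Acot4 chr12:85379329-85385673 and Acot3 chr12:85393101-85400514. The coding sequences of Acot1 and Acot2 were 95.2% identical over 1239 aligned bases, and those of the other pairs among these 6 genes were between 72.8% and 85.4% identical. A stretch of 60 coding bases from the second coding exon of these 4 member genes is shown because it bears on which gene a read can be assigned to. Capitals mark the 17 positions at which the 4 genes are not all the same.
Acot1 (chr12:85355329-85355388, plus strand, mm9): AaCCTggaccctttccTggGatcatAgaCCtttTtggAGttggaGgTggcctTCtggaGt
Acot2 (chr12:85331444-85331503, plus strand, mm9): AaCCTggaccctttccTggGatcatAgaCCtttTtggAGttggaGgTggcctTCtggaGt
Acot3 (chr12:85397859-85397918, plus strand, mm9): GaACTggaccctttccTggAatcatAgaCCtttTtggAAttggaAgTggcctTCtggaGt
Acot4 (chr12:85382787-85382846, plus strand, mm9): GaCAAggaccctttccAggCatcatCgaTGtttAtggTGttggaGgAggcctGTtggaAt

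Acot1 and Acot2 were identical over this stretch, and Acot4 differed from them at 14 positions and from Acot3 at 16. Over the whole transcripts, 47.3% of the 50-base words of Acot1 also occurred in another of the 6 paralogs, against 27.6% for Acot2, 14.4% for Acot3 and 12.1% for Acot4. The closest paralog by such words was Acot2 for Acot1, Acot5 for Acot3 and Acot6 for Acot4. How reads that match several genes were counted is not given in the sources used here, so the split of counts between Acot1 and Acot2 and between Acot3 and Acot5 is uncertain. The summed counts of Acot1 to Acot4 are therefore given beside the single genes.

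The 250 bases before the start of the 3 genes whose level differed between Lip+ISO and ISO are shown next, because a binding motif of PPAR was searched for there. They were read from mm9 and equal the RefSeq promoter windows of GRCm38.p6 over these bases. The motif is a direct repeat of AGGTCA with 1 base of any kind between the copies, searched on both strands with up to 2 mismatches, and capitals mark its match.
Acot2 (chr12:85328561-85328810, plus strand, mm9): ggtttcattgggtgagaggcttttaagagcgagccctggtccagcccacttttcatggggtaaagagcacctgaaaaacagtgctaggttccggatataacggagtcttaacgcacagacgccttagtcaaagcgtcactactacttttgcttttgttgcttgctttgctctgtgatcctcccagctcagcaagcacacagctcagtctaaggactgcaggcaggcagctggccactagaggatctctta
Acot3 (chr12:85392851-85393100, plus strand, mm9): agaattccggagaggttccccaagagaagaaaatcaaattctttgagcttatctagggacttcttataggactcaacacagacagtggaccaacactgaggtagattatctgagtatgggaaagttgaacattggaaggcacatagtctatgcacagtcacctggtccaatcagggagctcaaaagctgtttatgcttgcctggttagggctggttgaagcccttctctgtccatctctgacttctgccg
Acot4 (chr12:85379079-85379328, plus strand, mm9): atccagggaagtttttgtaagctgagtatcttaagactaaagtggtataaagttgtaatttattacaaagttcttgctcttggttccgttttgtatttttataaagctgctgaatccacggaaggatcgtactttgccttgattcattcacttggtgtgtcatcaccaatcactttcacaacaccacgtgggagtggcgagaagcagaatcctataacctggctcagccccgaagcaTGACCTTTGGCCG

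Acot4 had a match with 2 mismatches on the minus strand, which begins 13 bases before the start. Such a match occurred in 3.86% of all 32817 RefSeq promoter windows of 300 bases (250 before and 50 after the start) and in no other of the 8 member genes with a window. Acot13 had no entry. A single AGGTCA, searched on both strands without mismatches, occurred in 16.3% of all windows, in that of Acot4 within the match of the pair, and in that of Acot3 from base 12 after the start. The full cAMP response element TGACGTCA was found in none of the 8 member genes' windows and in 1.79% of all windows. Its shorter form TGACG, which the full element contains, was found for Acot2 once, and in 20.8% of all windows. A match describes these letters and is not a binding site.

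The outcome of the treatments differed along the family. After ISO, Acot3, Acot4, Acot7 and Acot2 rose by 4.74-fold to 1.32-fold, in that order. With inhibitors present, ISO left Acot4, Acot3 and Acot2 at levels 3.40-fold, 2.81-fold and 1.45-fold below those with ISO alone. Without ISO, Acot4 was already 2.18-fold lower in Lip than in DMSO. For no gene of the set did the difference between the responses to ISO with and without inhibitors pass the test. No difference of Acot7, Acot8, Acot9, Acot11 or Acot13 between Lip+ISO and ISO passed the test.

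The libraries held between 22632220 and 43707557 counts, and all 9 genes were among the 13543 that passed the filter on low counts. Levels are given as CPM, counts scaled to the size of each library after its correction by TMM, a factor that allows for differences in composition between libraries. Fold changes with their standard errors (SE), 95% intervals and p-values come from edgeR's quasi-likelihood test on all 12 libraries, with p-values adjusted over all 13543 genes by the Benjamini-Hochberg method, and an adjusted p of 0.05 or less counted as a call. The study states that its RNA-seq came from independent experiments but the labels do not describe the 3 replicates of a group, so the p-values measure the spread between these libraries. Deviations of same-numbered libraries from their group means correlated by over 0.1 in 17 of 18 pairs. The fit did not pair libraries by number, so this spread can include differences that same-numbered libraries share. Adipocyte markers (Adipoq, Plin1, Fabp4, Lep, Cidec, Lipe and Pparg) summed to 26330 to 32431 CPM in DMSO, 23594 to 30619 in ISO, 23924 to 27443 in Lip and 20216 to 26720 in Lip+ISO, and markers of erythrocytes had no count. Of these 7, Pparg and Lep were called lower after ISO, Lep and Lipe lower in Lip+ISO than in Lip, and in Lip+ISO against ISO Pparg was higher and Lipe lower. The 6 macrophage markers found in the table (Adgre1, Cd68, Csf1r, Mrc1, Itgam, C1qa and Cd14 were sought) summed to 26.4 to 30.4 CPM in DMSO, 57.6 to 84.6 in ISO, 28.7 to 30.9 in Lip and 42.3 to 71.4 in Lip+ISO. Of these 6, 4 passed the test as higher after ISO and 3 as higher in Lip+ISO than in Lip. Fibroblast markers summed to 356 to 628 CPM in DMSO, 698 to 918 in ISO, 479 to 498 in Lip and 433 to 597 in Lip+ISO, with 3 of 6 called higher after ISO and 3 of 6 lower in Lip+ISO than in ISO. Of the 6 endothelial markers none was called in any comparison, with sums of 97.8 to 184 CPM in DMSO, 175 to 337 in ISO, 52.5 to 165 in Lip and 72.0 to 209 in Lip+ISO. Mesothelial markers summed to 22.0 to 49.7 CPM in DMSO, 59.0 to 70.7 in ISO, 13.7 to 57.4 in Lip and 38.6 to 48.2 in Lip+ISO, with only Wt1 of 6 called, higher after ISO and in Lip+ISO than in Lip, and markers of epididymal epithelium did not exceed 0.516 CPM. These sums moved in part with the thioesterase genes, and their part in the results was not tested. In bulk libraries, fewer cells of a type and less RNA per cell cannot be told apart.

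Levels of different genes were compared as CPM per kb of counted length, averaged over all 12 libraries. Acot7 (77.3) and Acot13 (59.1) had the highest levels, followed by Acot2 (35.3), Acot9 (31.9), Acot8 (17.7), Acot4 (8.60), Acot3 (3.01), Acot1 (1.04) and Acot11 (0.238). Neighbours in this order were not always apart. Acot2 was above Acot9 in 7 of 12 libraries, Acot3 above Acot1 in 9, and Acot7 above Acot13 as well as Acot8 above Acot4 in 10. The remaining neighbours kept their order in all 12 libraries. Acot3 had the widest range among the 9 genes, 11.8-fold between its lowest and highest library in CPM, and Acot9 the narrowest, 1.27-fold.

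Acot3 encodes a peroxisomal thioesterase of long-chain acyl-CoA. Its level was 3.76, 3.57 and 4.23 CPM in the DMSO libraries (replicates 1 to 3), 15.5, 14.8 and 24.5 in ISO, 3.43, 2.32 and 2.07 in Lip, and 5.90, 5.00 and 8.58 in Lip+ISO. All ISO libraries lay above all others, and all Lip+ISO libraries lay above those of DMSO and of Lip. The values rest on 72 to 656 counts per library.

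Acot4 encodes a peroxisomal thioesterase that acts on succinyl-CoA and other dicarboxylic acyl-CoA. It stood at 19.9, 17.6 and 20.6 CPM in DMSO, 45.6, 33.5 and 40.8 in ISO, 9.20, 9.46 and 7.94 in Lip, and 10.8, 10.9 and 13.6 in Lip+ISO. The 4 groups did not overlap, with ISO highest, then DMSO, Lip+ISO and Lip. Acot4 was the only gene among the 9 whose Lip+ISO libraries all lay below the DMSO libraries and above the Lip libraries.

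Acot2, the mitochondrial enzyme for long-chain acyl-CoA, was the most abundant of the chromosome 12 genes. It had 74.1, 74.4 and 81.0 CPM in DMSO, 106, 89.8 and 107 in ISO, 62.4, 64.3 and 64.4 in Lip, and 74.9, 62.1 and 71.3 in Lip+ISO. The ISO libraries lay above all others and the Lip libraries below those of DMSO, while Lip+ISO overlapped with both DMSO and Lip.

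Acot1, the cytosolic enzyme, had 14 to 127 counts per library, a low level that depends on the uncertain split of counts with Acot2. It ranged from 0.783 to 2.18 CPM in DMSO, from 1.72 to 3.07 in ISO, from 0.481 to 1.48 in Lip and from 1.21 to 1.52 in Lip+ISO. The ISO libraries lay above those of Lip and Lip+ISO and overlapped with DMSO.

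**Figure D1:**
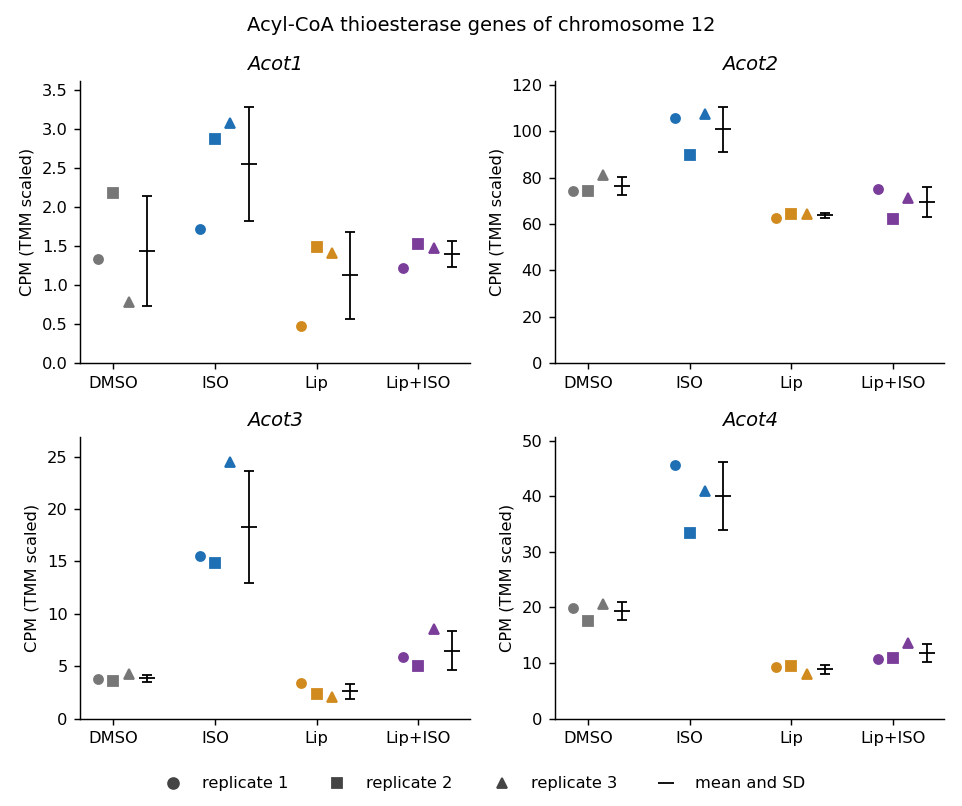
TMM-scaled CPM (vertical axes, linear, from 0) of Acot1, Acot2, Acot3 and Acot4 in the 4 groups, with 1 point per library shaped by replicate number and the mean with its SD (n = 3) as a bar beside the points. ISO libraries are the highest for Acot2, Acot3 and Acot4, and for Acot4 the Lip libraries (7.94 to 9.46) and Lip+ISO libraries (10.8 to 13.6) all sit below DMSO (17.6 to 20.6).

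Acot7 encodes a cytosolic thioesterase best known from brain. Its levels were 99.6, 101 and 91.7 CPM in DMSO, 140, 140 and 138 in ISO, 99.9, 103 and 92.8 in Lip, and 156, 120 and 104 in Lip+ISO. Both groups with ISO lay above both groups without it. The SD in Lip+ISO was 26.4 CPM, against 1.61 in ISO, so the spread between libraries differed among groups.

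The remaining genes varied little by group or had few counts. Acot8, a peroxisomal enzyme of broad specificity, averaged 19.7 ± 1.31 CPM (SD, n = 3) in DMSO, 19.0 ± 1.12 in ISO, 19.9 ± 1.81 in Lip and 22.5 ± 3.99 in Lip+ISO. Acot9, a mitochondrial enzyme, averaged 49.7 ± 2.89, 46.9 ± 3.17, 49.8 ± 3.38 and 51.2 ± 4.00 CPM in the same order. Acot13, a small thioesterase found at mitochondria, averaged 41.5 ± 3.18, 36.6 ± 0.247, 43.0 ± 5.38 and 41.0 ± 2.82 CPM, and its ISO libraries (36.3 to 36.8) lay below all others. Acot11, first known from brown fat of cold-exposed mice, had 10 to 49 counts per library and between 0.397 and 1.63 CPM, and the groups overlapped except that ISO lay above Lip+ISO. Over 3732 bases Acot11 overlaps Fam151a on the opposite strand, which averaged 0.0828 CPM, and Acot8 overlaps Snx21 by 3 bases. Whether the counting used strand is not given in the sources used here.

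**Figure D2:**
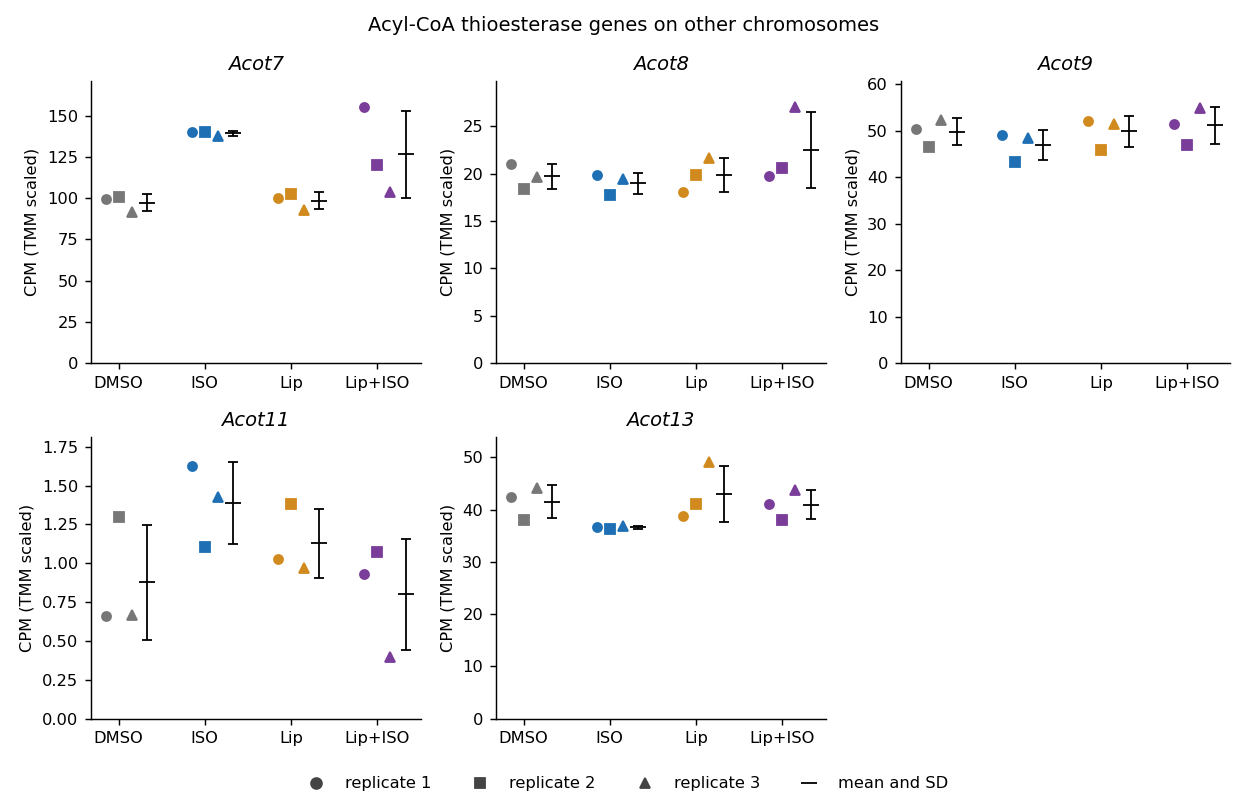
TMM-scaled CPM (vertical axes, linear, from 0) of Acot7, Acot8, Acot9, Acot11 and Acot13 in the 4 groups, 1 point per library shaped by replicate number, with the mean and SD (n = 3) beside the points. Acot7 is higher in both groups with ISO, with 1 Lip+ISO library at 156 CPM and another at 104, whereas Acot8 and Acot9 overlap between groups.

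In the comparison of ISO with DMSO, which measures the β-adrenergic response with lipases active, 4 of the 9 genes were called higher and 0 lower, where 12.3% of all tested genes were higher and 13.9% lower. Acot3 rose by 2.24 ± 0.26 on the log2 scale (SE, adjusted p = 5.85e-05), or 4.74-fold. Acot4 rose by 1.04 ± 0.13 (adjusted p = 0.000127), Acot7 by 0.52 ± 0.12 (adjusted p = 0.00635) and Acot2 by 0.40 ± 0.09 (adjusted p = 0.0058). The ISO libraries of these 4 genes did not overlap with DMSO, which describes the libraries already tested and is not further evidence. Acot7 lost the call without replicate 2 of all groups (adjusted p = 0.0780), as did Acot2 without replicate 1 or replicate 3 (adjusted p = 0.0657 and 0.0577). Acot1 had a log2 fold change of 0.84 ± 0.44 with a 95% interval from -0.11 to 1.80 (adjusted p = 0.175), and that of Acot11 was 0.66 ± 0.41, from -0.23 to 1.55 (adjusted p = 0.255). For Acot13 the log2 fold change was -0.18 ± 0.10, with an interval from -0.40 to 0.03 (adjusted p = 0.194). Acot8 and Acot9 had log2 fold changes of -0.06 and -0.09, with intervals from -0.33 to 0.22 and from -0.28 to 0.11. Over the 9 genes the median was 0.52, and over all tested genes it was 0.00.

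In the comparison of Lip+ISO with Lip, which measures the response to ISO with lipases inhibited, 3 of the 9 genes were called higher and 0 lower, where 11.5% of all tested genes were higher and 15.8% lower. Acot3 rose by 1.32 ± 0.27 on the log2 scale (adjusted p = 0.00245), Acot4 by 0.41 ± 0.14 (adjusted p = 0.0473) and Acot7 by 0.36 ± 0.12 (adjusted p = 0.0359). The call of Acot3 held without any 1 library, whereas those of Acot4 and Acot7 stood close to the threshold. Acot4 lost it without any 1 of the DMSO or Lip libraries, ISO replicate 3, or Lip+ISO replicate 2 or 3, with adjusted p from 0.0520 to 0.170 and log2 fold changes from 0.30 to 0.47. Without a replicate number in all groups it was lost as well, most of all without replicate 3 (0.21, adjusted p = 0.437). Acot7 lost it without DMSO replicate 1, ISO replicate 2, any 1 of the Lip libraries or Lip+ISO replicate 1, with adjusted p from 0.0506 to 0.14, and without replicate 1 or 2 of all groups (adjusted p = 0.209 and 0.144). The lowest of these log2 fold changes of Acot7, 0.18, came without Lip+ISO replicate 1, the library at 156 CPM. With library totals in place of TMM, the log2 fold changes were 0.29 for Acot4 (adjusted p = 0.104) and 0.25 for Acot7 (adjusted p = 0.170). Acot2 had a log2 fold change of 0.12 with an interval from -0.07 to 0.32 (adjusted p = 0.353). Those of the other 5 genes lay between -0.49 for Acot11 and 0.31 for Acot1, with adjusted p of 0.345 or more. The median of the 9 genes was 0.18, beside 0.00 over all tested genes.

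In the comparison of Lip with DMSO, which measures the inhibitors without stimulation, Acot4 was the only 1 of the 9 genes called. It was 1 of 6 genes called lower, 0.0443% of those tested, and 0 of the 9 were higher, where 0.00738% were. Acot4 fell by 1.13 ± 0.14 on the log2 scale (adjusted p = 0.0142), to a level 2.18-fold below DMSO. Without any 1 of the 6 libraries compared, the log2 fold change lay between -1.20 and -1.06, but the adjusted p rose to between 0.0573 and 0.0865. Acot2 and Acot3 were not called, with log2 fold changes of -0.26 (interval from -0.46 to -0.07, adjusted p = 0.787) and -0.57 (interval from -1.15 to 0.02, adjusted p = 1). The intervals of Acot7, Acot8, Acot9 and Acot13 lay between -0.26 and 0.28 on the log2 scale. Those of Acot1 (-0.33, from -1.31 to 0.64) and Acot11 (0.37, from -0.52 to 1.26) were wider. The median of the 9 genes and that over all genes were both 0.00.

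In the comparison of Lip+ISO with ISO, which measures the inhibitors under stimulation, 3 of the 9 genes were called lower and 0 higher, where 4.59% of all tested genes were lower and 4.36% higher. Acot4 fell by 1.77 ± 0.14 on the log2 scale (adjusted p = 1.12e-05), Acot3 by 1.49 ± 0.26 (adjusted p = 0.00289) and Acot2 by 0.54 ± 0.09 (adjusted p = 0.00244). For all 3 genes, each Lip+ISO library was below each ISO library, which again only describes the libraries tested. The calls of these 3 genes held without any 1 library. Acot2 had an adjusted p of 0.0598 without replicate 3 of all groups. Acot1 and Acot11 had log2 fold changes of -0.87 (interval from -1.82 to 0.09, adjusted p = 0.255) and -0.78 (interval from -1.68 to 0.12, adjusted p = 0.280). That of Acot7 was -0.14, with an interval from -0.39 to 0.11 (adjusted p = 0.515), and without Lip+ISO replicate 1 it was -0.32 (adjusted p = 0.0387). Acot8, Acot9 and Acot13 had values of 0.25, 0.13 and 0.16 with adjusted p of 0.261 or more. The median of the 9 genes was -0.54, beside -0.01 over all tested genes. This comparison shares the ISO libraries with that of ISO and DMSO, so the fall and the rise of Acot2, Acot3 and Acot4 are not separate evidence.

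**Figure D3:**
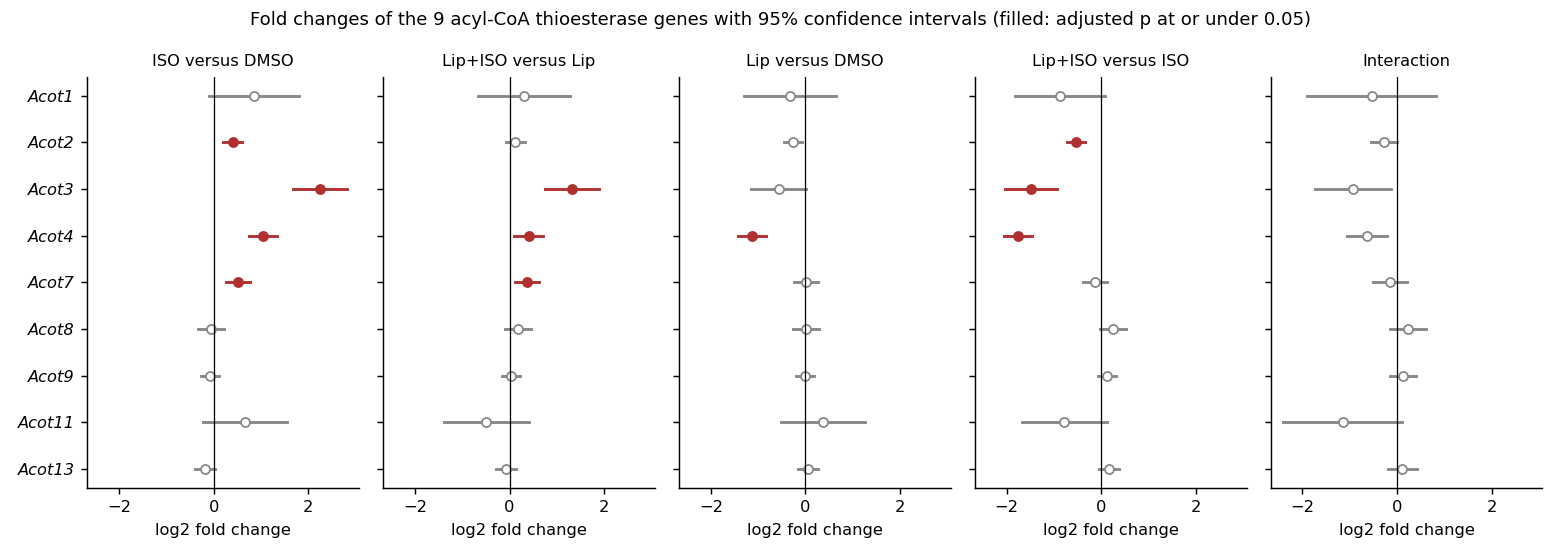
Log2 fold changes (horizontal axes) of the 9 genes in the 4 comparisons of 2 groups, and the interaction on the right, with 95% confidence intervals as lines and filled red points for an adjusted p of 0.05 or less. Acot2, Acot3 and Acot4 lie right of 0 for ISO against DMSO and left of 0 for Lip+ISO against ISO, and no point is filled in the interaction.

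Whether the inhibitors changed the response to ISO was tested as the interaction, the log2 response with inhibitors minus that without. None of the 9 genes was called in either direction in edgeR, where 0.901% of all tested genes had a positive and 0.724% a negative interaction. DESeq2 also called 0 of the 9, but gave no adjusted p for Acot1 and Acot11. In edgeR, 3 of the 9 had an unadjusted p under 0.05, all with a smaller response under inhibitors. The share of all tested genes at that threshold is not given here, so the count is no result about the set. These 3 genes, all among the chromosome 12 paralogs, were Acot4 (-0.64 ± 0.19, adjusted p = 0.142), Acot3 (-0.92 ± 0.37, adjusted p = 0.284) and Acot2 (-0.28 ± 0.13, adjusted p = 0.360). The interval of Acot4 reached from -1.06 to -0.22. Acot7 had an interaction of -0.16 with an interval from -0.51 to 0.20. Those of Acot8, Acot9 and Acot13 lay between 0.11 and 0.23, and Acot1 and Acot11 had wide intervals, from -1.90 to 0.83 and from -2.41 to 0.12. That Acot2 was called after ISO without the inhibitors and not with them is therefore not shown to be a difference between the responses.

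The sum of Acot1 to Acot4, which does not depend on how reads were divided among these 4 genes, rose after ISO by 0.68 ± 0.09 on the log2 scale (adjusted p = 0.000214). It was lower in Lip+ISO than in ISO by 0.86 (value -0.86 ± 0.09, adjusted p = 0.000104). For Lip+ISO against Lip the sum had a log2 fold change of 0.22 (adjusted p = 0.10), for Lip against DMSO -0.41 (adjusted p = 0.297) and for the interaction -0.45 (adjusted p = 0.124). Each of these 3 missed the threshold here and passed it in at least 1 alternative analysis. Lip against DMSO passed with DESeq2 (-0.41, adjusted p = 0.037). Lip+ISO against Lip passed in edgeR without Lip+ISO replicate 2 (0.31, adjusted p = 0.037). With the replicate number added to the edgeR fit as a block, Lip+ISO against Lip (0.22, adjusted p = 0.0362) and the interaction (-0.46, adjusted p = 0.0235) passed. The labels do not say that the numbers pair libraries, so the interaction of the sum depends on that choice. In all 4 comparisons of 2 groups, the sums did not overlap, but how often this occurred among all tested genes is not given here. Acot2 supplied most of these counts, so the sum followed it and Acot4 more than Acot3.

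Acot5 and Acot6, the neighbours of Acot3 and not members of the set, did not move alike. Acot5 had 0.726, 1.43 and 0.822 CPM in DMSO, 7.35, 9.92 and 15.9 in ISO, 0.240, 0.418 and 0.443 in Lip, and 0.889, 3.93 and 5.36 in Lip+ISO. It rose after ISO by 3.49 ± 0.55 on the log2 scale (adjusted p = 0.000537) and by 3.18 ± 0.59 with inhibitors (adjusted p = 0.00133), and it was lower in Lip+ISO than in ISO (-1.70 ± 0.49, adjusted p = 0.0487). Acot6 had 3.37 to 3.83 CPM in ISO and 4.20 to 5.65 in DMSO, with a log2 fold change of -0.49 ± 0.18 (adjusted p = 0.0577). Of the counts of all 6 neighbours, Acot2 made up 71.4% ± 1.01 in DMSO (SD, n = 3), 57.3% ± 2.00 in ISO, 77.9% ± 1.26 in Lip and 71.4% ± 3.90 in Lip+ISO. Acot4 made up 18.1% ± 0.958, 22.7% ± 2.38, 10.8% ± 0.928 and 12.1% ± 1.05 in that order, and Acot3 3.59% ± 0.155, 10.3% ± 2.03, 3.20% ± 0.935 and 6.60% ± 1.35. The share of Acot2 was thus lowest in ISO, without overlap with another group, and that of Acot3 highest.

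**Figure D4:**
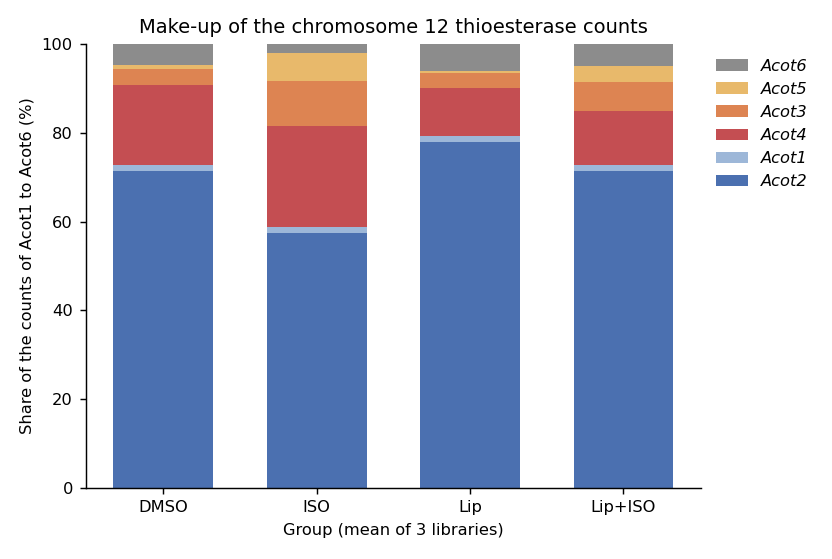
Mean share in percent of the summed counts of Acot1 to Acot6 (vertical axis) that came from each gene, in the 4 groups (3 libraries each). Acot2 holds 57.3% of the counts in ISO and 71.4% or more in the other groups, while Acot3, Acot4 and Acot5 together take a larger share in ISO.

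The genes with the pattern most like those called in Lip+ISO against ISO were looked up by Pearson's r of log2 CPM over the 12 libraries, as a description. They were Hcar2 (0.975), Tmem120a (0.974) and Agpat2 (0.958) for Acot4, Atp10d (0.978), Baz1a (0.968) and Chst11 (0.968) for Acot3, and Kctd12 (0.964), Epor (0.956) and Anxa2 (0.954) for Acot2. Hcar2, which encodes the antilipolytic receptor of β-hydroxybutyrate and niacin, averaged 24.1 CPM in DMSO, 46.9 in ISO, 15.3 in Lip and 19.7 in Lip+ISO. The 12 points of each pair share library and treatment.

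Other genes of acyl-CoA metabolism were counted by list, as tested genes that passed the same edgeR test. The list counts stand beside the shares of all tested genes, 12.3% higher and 13.9% lower after ISO. For Lip+ISO against Lip these shares were 11.5% and 15.8%, and for Lip+ISO against ISO 4.36% and 4.59%. The list genes named here were chosen after their values had been seen. Of 9 other thioesterases, Acot5 and Ppt2, a lysosomal thioesterase, were called higher after ISO (0.39 ± 0.10 for Ppt2) and lower in Lip+ISO than in ISO (-0.57 ± 0.10 for Ppt2), and Acot5 was higher in Lip+ISO than in Lip. Of 18 acyl-CoA synthetases, which form acyl-CoA, 3 were higher after ISO and 0 lower. Acsl3 and Acsl4 rose by 1.51 ± 0.14 and 1.36 ± 0.12 on the log2 scale without inhibitors and by 1.67 ± 0.14 and 1.88 ± 0.12 with them, and Acsl4 was higher in Lip+ISO than in ISO (0.44 ± 0.12, adjusted p = 0.0386). Acsbg1 was higher after ISO (1.65 ± 0.32) and lower in Lip+ISO than in ISO (-1.23 ± 0.32). Of 8 acyl-CoA binding proteins and CoA diphosphatases, 1 was higher and 2 lower after ISO, and 1 was higher and 1 lower in Lip+ISO than in Lip.

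Of 18 genes of mitochondrial fatty acid oxidation, 0 were called after ISO, and Cpt1a, which passes acyl groups into mitochondria, was higher in Lip+ISO than in Lip (0.59 ± 0.08) and than in ISO (0.29 ± 0.08). Of 13 genes of peroxisomal oxidation, 2 were lower after ISO, Abcd2 and Pex11a. Acox3, a peroxisomal acyl-CoA oxidase, was higher in Lip+ISO than in Lip (1.00 ± 0.16) and than in ISO (0.91 ± 0.16), the latter opposite to Acot3 and Acot4. Of 15 PPAR target genes outside the set, 3 were higher and 0 lower after ISO, 1 was higher and 3 lower in Lip+ISO than in Lip, and 4 had a lower level under Lip+ISO than under ISO. Pdk4 was called lower both in Lip than in DMSO (-1.66 ± 0.21, adjusted p = 0.0142), like Acot4, and in Lip+ISO than in ISO (-4.04 ± 0.23, adjusted p = 8.02e-07). In Lip+ISO against Lip, Pdk4 (-1.32 ± 0.21, adjusted p = 0.000423) and Angptl4 (-2.33 ± 0.14, adjusted p = 8.02e-08) were lower, opposite to Acot3 and Acot4. Unlike those of the thioesterase genes, the interactions of Pdk4 (-2.38 ± 0.29, adjusted p = 0.00171) and Angptl4 (-2.06 ± 0.19, adjusted p = 0.000195) passed the test. Apart from Pdk4, no gene of the 6 lists was called in Lip against DMSO. The lists' medians lay between -0.09 and 0.18 after ISO and between -0.18 and 0.16 for Lip+ISO against ISO, where the 9 thioesterase genes had 0.52 and -0.54. These last 2 values are those of Acot7 and Acot2, and Acot1 to Acot4 among the 9 are neighbouring paralogs. The medians are a description and not a test, since genes and lists were chosen with earlier results of these data known.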

How the data were processed

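Per the labels and the study's methods, the authors aligned reads to mm9 with STAR 2.4.2a, counted them per RefSeq gene with HOMER (1 read per position and read length) and iRNA-seq, and deposited raw counts per gene. Whether counting used strand or reads matching several genes is not given in the sources used here. Deposited lengths, in base pairs, served only for levels per kb. Groups came from sample titles, and all 12 columns were used.

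Counts were fitted in R 4.3.3 with edgeR 4.0.16 (filterByExpr, TMM factors from 0.924 to 1.07, 1 mean per group, 8 residual degrees of freedom, two-sided quasi-likelihood F-test). The common biological coefficient of variation was 0.163. SE is the log2 fold change divided by the square root of F. DESeq2 1.42.0, other scalings and filters, fits of the compared groups, a replicate block and leaving out libraries were alternatives. Coding sequences were aligned with mafft 7.526. The fit was tested on simulated data. All 9 genes were covered in each comparison, by name or within a stated range, and others by the 3 highest correlations or from lists. The genes and lists were chosen with earlier results of these data known.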

Additional observations from a re-analysis of the deposited data

How the results depend on the processing

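The counts of 4 genes called after ISO and 3 in Lip+ISO against ISO stayed within 1.5 times under other scalings, filters, DESeq2, the fit of the 2 groups alone and left-out libraries (3 to 4 and 2 to 4 genes). With a log2 fold change of at least 1 required, 2 genes were called after ISO. For Lip+ISO against Lip, 1 gene was called with that requirement, with library totals only, with only the 2 groups compared, and in 6 fits without a library or a replicate number, so the range over left-out libraries was 1 to 3. For Lip against DMSO, 0 to 1 genes were called in such fits, and Acot4 kept a log2 fold change between -1.24 and -1.01. The causes of these losses were not tested, and fits with left-out libraries or of the 2 groups alone also had fewer libraries.

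For the sum of Acot1 to Acot4, Lip+ISO against Lip passed with the replicate block (0.22, adjusted p = 0.0362) and without Lip+ISO replicate 2 (0.31, adjusted p = 0.037, over a range of 0.17 to 0.31), and Lip against DMSO passed with DESeq2 (-0.41, adjusted p = 0.037). The interaction of the sum passed with the replicate block (-0.46, adjusted p = 0.0235). Without the block, adding Acot5 and Acot6, an alternative chosen after seeing the data, gave an interaction of -0.47 (adjusted p = 0.111), beside -0.45 (adjusted p = 0.124) for Acot1 to Acot4. Deviations of same-numbered libraries correlated by over 0.1 in 17 of 18 pairs (0.04 to 0.37), and each of the 12 libraries was nearest to its own number, a hint from the data and not the design, so the numbers were not taken to pair the libraries. The replicate block changed no other call of the 9 genes or the sum.

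Signs turned only in results that no fit called, those of Acot1, which had wide intervals, and of genes with values near 0. For Lip+ISO against Lip these were Acot9 with library totals (-0.0741), and over left-out libraries Acot1 (-0.0309 to 0.54), Acot9 (-0.0234 to 0.10) and Acot13 (-0.13 to 0.0366). For Lip against DMSO they were Acot9 without the filter (-0.00288), and over left-out libraries Acot1 (-0.82 to 0.0825), Acot7 (-0.0267 to 0.0508), Acot8 (-0.0627 to 0.12), Acot9 (-0.0486 to 0.0574) and Acot13 (-0.0635 to 0.13). The interaction of Acot1 lay between -0.95 and 0.0632. DESeq2 gave no adjusted p for some low genes.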
